A study of Mus musculus with 48 samples.

Results

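This comparison covers livers of ATF7+/+ mouse offspring (F1) whose sires (F0) were fed a low protein diet (LPD) or a control diet (CD). The arrays were taken by their labels alone: 8 of offspring of LPD sires and 8 of offspring of CD sires, 16 of the 48 arrays of the series. CD replicates 7 and 8 were nearly identical and were averaged, which left 15 samples, 8 LPD and 7 CD. The sires received their diet between 3 and 12 weeks of age, and the median lobe of the liver was taken from male or female offspring at 3 weeks. The offspring diet is not described in the labels, and the offspring of both groups carried the genotype label ATF7+/+. The other 32 arrays are of ATF7+/- and wild-type (WT) offspring under the same sire diets, and how the ATF7+/+ and wild-type offspring differ is not stated in the labels. The series describes the 8 arrays of a group as independent experiments, but does not say whether offspring shared a sire or a litter. If they did, the p-values below are too small.

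ATF7 is a transcription factor of the ATF/CREB family that recruits histone H3K9 methyltransferases to chromatin, and in mice it is released from its targets by stress signalling. A paternal low protein diet is a standard model of intergenerational inheritance in mice, and altered hepatic lipid synthesis genes in the offspring are its best known readout. In the juvenile mouse liver, growth hormone acts through STAT5, which induces Cish and Igf1 and represses Bcl6. Sterol and fatty acid synthesis genes are driven by the SREBP factors, and fatty acid synthesis genes also by ChREBP.

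All values are log2 expression levels per probe set. The arrays of the whole series fell into 2 sets that the labels do not name, here called array sets A and B, found from probe sets with no listed gene. In the ATF7+/+ groups, set A held replicates 1 to 3 of each diet (3 LPD and 3 CD samples), and set B held the rest (5 LPD and 4 CD samples). Both diets were thus present in both sets, and values within the sets are given for many of the genes and lists below. Y-linked genes were high in 6 of 8 LPD samples and in 6 of 7 CD samples, and in all samples of set A. Hepatocyte markers were close to the top of the scale, with a mean level of 13.02 to 13.20 in LPD samples and 13.04 to 13.22 in CD samples. Atf7 itself averaged 9.01 ± 0.11 in LPD and 9.05 ± 0.26 in CD samples on its brighter probe set, and 8.61 ± 0.14 in LPD and 8.72 ± 0.27 in CD samples on the other (SD, n = 8 and 7). The differences were -0.05 ± 0.08 and -0.11 ± 0.13 (log2, SE), each with a limma adjusted p of 0.9995. On that second probe set, ATF7+/- offspring averaged 7.72 under either sire diet.

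Onecut1 was the gene that passed the test in ATF7+/+ offspring, 1 of 13542 genes (0.00738%), and it was higher in offspring of LPD sires. No gene was lower past the threshold (0%). At an unadjusted p under 0.05 there were 621 genes (4.59%), of which 302 were higher (2.23%) and 319 lower (2.36%) in LPD offspring. Bcl6, Cish, Ppp4r4, Khnyn and Mr1 came next, each with an adjusted p of 0.0855 (limma, Benjamini-Hochberg over all genes). The diet groups did not overlap in any sample for 13 genes (0.096%), of which 5 were higher and 8 lower in LPD offspring. Bcl6, Cish, Efna1, Irf2bp2, Cldn14 and Pnrc1 were among them.

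Onecut1 encodes HNF6, a cut-homeodomain factor of hepatocytes and bile duct cells that growth hormone induces in rat liver. Its lowest, median and highest log2 levels were 9.26, 9.84 and 10.14 in LPD samples, against 7.35, 8.60 and 9.44 in CD samples. The groups met only through CD replicate 6, at 9.44, which exceeded LPD replicate 7, at 9.26. The mean was 9.79 ± 0.29 in LPD and 8.51 ± 0.63 in CD samples (SD, n = 8 and 7). The difference was 1.28 ± 0.24 (log2, SE), or 2.43-fold, with a limma adjusted p of 0.0493. It was 1.49 within array set A against 1.11 within set B. The call was narrow: leaving out each sample in turn gave differences of 1.09 to 1.43 and adjusted p-values of 0.00593 to 0.209, and the gene passed in 3 of 15 such fits. Those 3 left out CD replicate 6, LPD replicate 2 or LPD replicate 7, and leaving out any other sample ended the call. Without CD replicate 6 the count of genes called was 5, and without LPD replicate 2 it was 2. It also ended in the fit on the ATF7+/+ samples alone, with an adjusted p of 0.0799, and passed with the replicate number as a block, with an adjusted p of 0.0471. Over all 32 alternatives the adjusted p ran from 0.00312 to 0.314.

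Cish and Bcl6 differed in opposite directions between the diet groups, and neither passed the main test (limma adjusted p = 0.0855 for each). Growth hormone and STAT5 activity were not measured, and whether they differed was not tested. Cish, an inhibitor of STAT5 signalling that STAT5 itself induces, had 7.81, 8.32 and 8.93 as its lowest, median and highest level in LPD samples, against 6.42, 7.28 and 7.80 in CD samples. Every LPD sample lay above every CD sample, the closest being LPD replicate 7 at 7.81 and CD replicate 2 at 7.80. The difference was 1.06 ± 0.23, or 2.08-fold, and was 1.02 in array set A against 1.09 in set B. Cish passed with the replicate number as a block (adjusted p = 0.0471) and with the array set as a term (adjusted p = 0.0398), in a range of 0.0187 to 0.397 over its alternatives. Bcl6, a zinc-finger repressor that STAT5 holds down, had 6.27, 7.07 and 7.72 in LPD samples, against 7.94, 8.71 and 8.93 in CD samples. Its groups were separate as well, in the opposite direction. The difference was -1.60 ± 0.34, a ratio of 0.33, and was -1.02 in set A against -1.95 in set B. Bcl6 passed with the array set as a term (adjusted p = 0.0348) and in the fit on the ATF7+/+ samples alone (adjusted p = 0.0195), where it replaced Onecut1 as the gene called. Its adjusted p ran from 0.00312 to 0.546 over the alternatives.

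**Figure D1:**
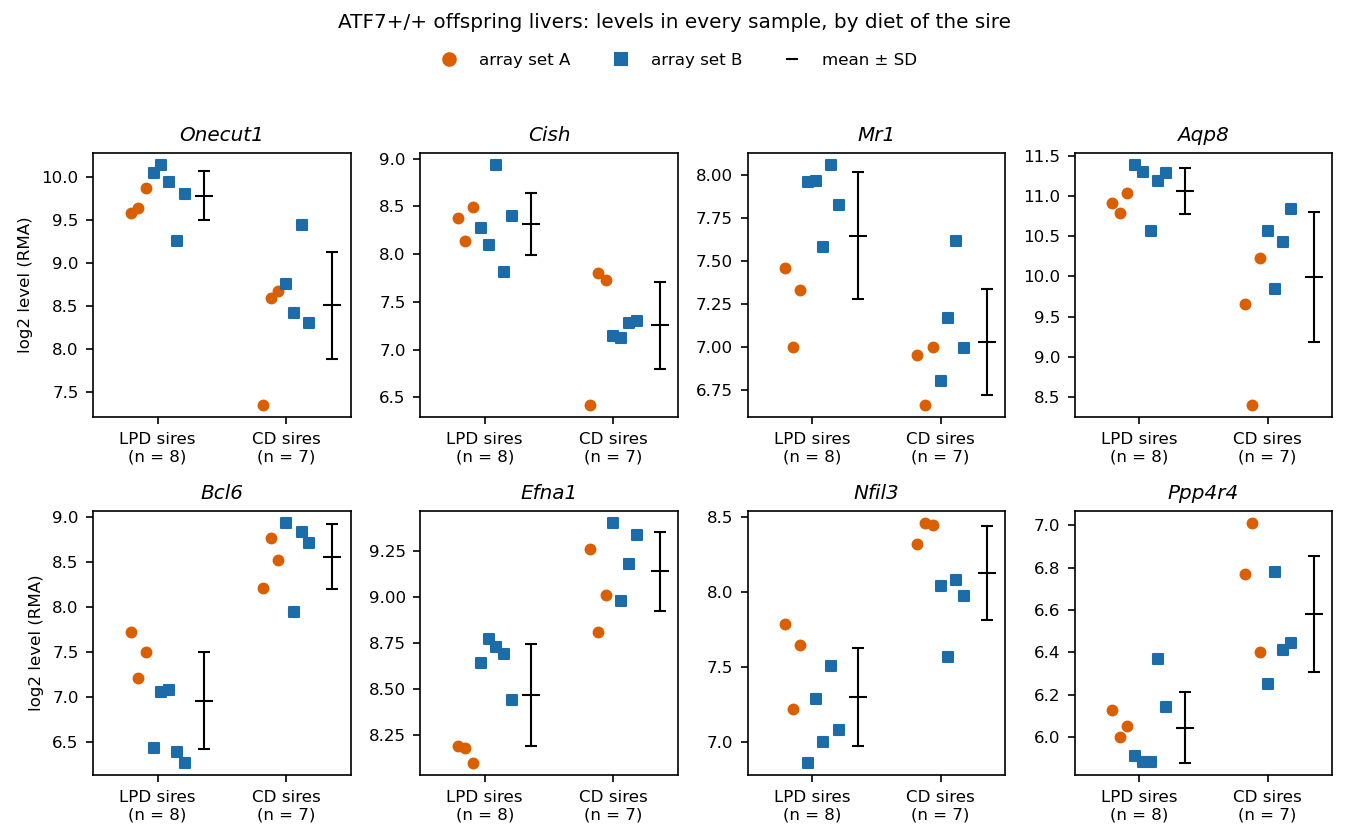
Log2 level of 8 genes in every ATF7+/+ sample, with LPD offspring on the left and CD offspring on the right of each panel. Circles are array set A, squares array set B, and bars the mean ± SD. The LPD samples of Cish lie above, and those of Bcl6 and Efna1 below, every CD sample.

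The promoters of these genes are shown because Cish and Bcl6 are textbook STAT5 targets. STAT5 binds TTCNNNGAA, which reads the same on both strands, and BCL6 recognises similar letters. In the RefSeq promoters of the tested genes (250 bases before to 50 after each annotated start, build GRCm38.p6), 6.8% of 13631 promoters held at least 1 match, 0.36% held 2 or more and 0.02% held 3 or more. Cish held 2 matches, at positions 1 and 12 from the start (chr9:107296654-107296683, plus strand). Bcl6 held 3 in its downstream promoter, at -168, -122 and -88 (chr16:23981344-23981463, minus strand), and 1 in its upstream promoter, at -118 (chr16:23988943-23988987, minus strand). Onecut1 held no STAT5 match in this window, and held an E-box, CACGTG, at -232 (chr9:74861671-74861920, plus strand), a motif found in 9.5% of promoters. The search also covered D-box, Onecut and sterol-response letters, over 36 named genes. Among these, Pnrc1, Gpr146, B130024G19Rik, Cldn14 and Tgif1 also held a STAT5 match. Aqp8, Gpr146, Jmy, Rdh11, Dhcr7, Cfap126, 1190007I07Rik and Atf7 held an E-box. Bcl6 held an E-box as well, at -60 in its upstream promoter and outside the stretch shown. Of the tested genes with a promoter, 8.1% held a STAT5 match and 11.3% an E-box. The capitals mark the STAT5 matches of Cish and Bcl6 and the E-box of Onecut1. They are letters in a window, and the motifs were chosen for the search with the expression results known.
Cish: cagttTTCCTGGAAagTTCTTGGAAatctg
Bcl6, downstream: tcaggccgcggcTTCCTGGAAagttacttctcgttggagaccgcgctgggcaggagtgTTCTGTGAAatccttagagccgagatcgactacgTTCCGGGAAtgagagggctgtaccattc
Bcl6, upstream: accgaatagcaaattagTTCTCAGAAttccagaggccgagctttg
Onecut1: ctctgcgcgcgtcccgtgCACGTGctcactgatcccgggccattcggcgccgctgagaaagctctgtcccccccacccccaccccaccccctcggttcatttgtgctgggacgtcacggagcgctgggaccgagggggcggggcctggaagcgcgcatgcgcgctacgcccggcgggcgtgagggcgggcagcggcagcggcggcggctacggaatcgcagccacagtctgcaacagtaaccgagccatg

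The remaining growth hormone and STAT5 genes differed little. Of the 16 genes measured in that list, 1 rose (Onecut1) and 0 fell, and with the array set as a term 2 rose and 1 fell (Onecut1, Cish and Bcl6). The median difference of the list was 0.10, against 0.01 over all genes. The list was drawn up with these genes' values known, so its count is no separate evidence of its direction. Igf1, the main growth hormone-induced hormone of the liver, averaged 11.54 ± 0.13 in LPD and 11.35 ± 0.26 in CD samples, a difference of 0.20 ± 0.08 (unadjusted p = 0.0209, limma) that did not pass the adjusted test. Ghr, the growth hormone receptor, averaged 11.43 in both groups. In the list of hepatocyte transcription factors, Onecut1 was the 1 of 16 genes called, and the median was -0.02. Prox1, a homeobox factor of hepatocytes, differed by -0.23 ± 0.11 and Nr1i3, the xenobiotic receptor CAR, by -0.46 ± 0.31.

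None of the 12 genes with the smallest p among those lower in LPD offspring passed the adjusted test. Efna1, a membrane-bound ephrin ligand, had 8.10, 8.54 and 8.77 as its lowest, median and highest level in LPD samples, against 8.81, 9.18 and 9.40 in CD samples. The groups did not overlap, and the difference was -0.67 ± 0.16 (adjusted p = 0.183). With the array set as a term its adjusted p was 0.0151, in a range of 0.00808 to 0.475 over its alternatives. Nfil3, a bZIP repressor of D-box clock genes, had 6.86, 7.25 and 7.79 in LPD samples, against 7.57, 8.08 and 8.46 in CD samples. The groups overlapped through CD replicate 5, which lay below 2 of the LPD samples. Its difference was -0.83 ± 0.20 (adjusted p = 0.185), at -0.86 in set A against -0.77 in set B. Irf2bp2, a corepressor, differed by -0.52 ± 0.12 (adjusted p = 0.185) without overlap, and Pnrc1, a nuclear receptor coactivator, by -0.41 ± 0.11 (adjusted p = 0.30), also without overlap. Ppp4r4, a regulatory subunit of protein phosphatase 4, differed by -0.54 ± 0.11, and Khnyn, an antiviral RNA-decay cofactor in human cells, by -0.45 ± 0.10 (-0.71 in set A against -0.26 in set B). Cyp39a1, an oxysterol 7α-hydroxylase of bile acid synthesis, differed by -0.51 ± 0.12 (adjusted p = 0.135). Fbxo32, a ubiquitin ligase that FOXO factors induce in muscle, differed by -0.43 ± 0.11 (adjusted p = 0.30). Gdf10, Plscr4 and Jmy, a TGFβ-family ligand, a phospholipid scramblase and an actin nucleator, differed by -0.37, -0.31 and -0.34.

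Of the 12 genes with the smallest p among those higher in LPD offspring, Onecut1 alone passed the adjusted test. Mr1, the molecule that presents vitamin B metabolites to T cells, had 7.0, 7.71 and 8.06 as its lowest, median and highest level in LPD samples, against 6.66, 7.0 and 7.62 in CD samples. The groups overlapped, and the difference was 0.62 ± 0.14 (adjusted p = 0.0855). Aqp8, a water channel of the hepatocyte canalicular membrane, had 10.56, 11.11 and 11.38 in LPD samples, against 8.40, 10.23 and 10.83 in CD samples. The CD samples of set A lay below all LPD samples, and those of set B overlapped with them. Its difference of 1.06 ± 0.26 (adjusted p = 0.185) was 1.48 in set A against 0.72 in set B. Fmo4, a flavin monooxygenase, differed by 0.36 ± 0.09, and Cldn14, a tight junction claudin, by 0.32 ± 0.08 without overlap. Gask1a, Gabbr2 and Serpina12 (vaspin) differed by 0.73, 0.79 and 0.79. Gabbr2 was at 1.10 in set A against 0.55 in set B, and Serpina12 at 1.41 in set A against 0.38 in set B. Gpr146, a receptor that raises plasma cholesterol in mice, differed by 0.48 ± 0.13, and the cilium-related genes Cfap126 and Cfap20dc by 0.57 ± 0.15 and 0.44 ± 0.12.

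With the array set as a term, 17 genes passed (0.126%), 10 higher and 7 lower in LPD offspring. Beside Onecut1, Cish, Bcl6, Efna1, Mr1, Ppp4r4, Khnyn, Cyp39a1 and Aqp8, these were Pnpla3, Eepd1, Ank, Ccdc69, Pef1, Tgif1, 1190007I07Rik and B130024G19Rik. Pnpla3, a lipid droplet lipase that SREBP-1c induces, differed by 1.36 ± 0.40, at 2.43 in set A against 0.73 in set B, and its adjusted p was 0.0398 with that term (0.00182 to 1 over its alternatives). Eepd1, a gene that LXR induces in macrophages, differed by 0.41 ± 0.13, and Ank, a pyrophosphate transporter, by 0.43 ± 0.13. Tgif1, a corepressor of TGFβ signalling, differed by -0.39 ± 0.18. With the replicate number as a block, 2 genes passed (0.0148%), Onecut1 and Cish. Among Y-linked high samples alone no gene passed (0%), and 3 did so with the array set as a term (0.0222%), namely B130024G19Rik, Efna1 and Ppp4r4.

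The array sets differed in what else they showed. Within set A alone, 59 genes passed (0.436%), 35 higher and 24 lower in LPD offspring, while within set B none did (0%). Of those 59, 34 (57.6%) had the same sign in set B, against 47.3% of all genes. In set B 6 of the 59 had an unadjusted p under 0.05 (limma), as did 1184 of all 13542 genes. Across all genes, the diet differences in the sets had a Pearson correlation of 0.03 as a description (13542 genes, which share samples and are not independent). The diet difference itself differed between the sets at 32 genes (0.236%), 10 of them with the higher difference in set A. In 31 of the 32 the signs were opposite, which picking genes for a gap between the sets favours. Over all genes 47.3% had the same sign in both sets. Among the 32 were the sterol genes Sqle (1.53 in set A against -0.28 in set B), Cyp51 (1.15 and -0.36) and Hsd17b7 (1.16 and -0.09). Whether the sets differ by hybridization, cohort or anything else was not tested.

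Fatty acid synthesis genes lay higher in LPD offspring without passing the test. All 19 measured genes had the higher mean in LPD samples, against 52.5% of all genes, 0 rose past the threshold, and 6 had an unadjusted p under 0.05, all higher. After quantile normalization the higher mean was seen in 18 of the 19. The median difference was 0.44, at 0.90 in set A against 0.17 in set B, against 0.01 over all genes. The genes share regulators and samples, so they are not independent. Averaged over the list, the level was 10.51 to 11.28 in LPD samples, against 9.93 to 10.78 in CD samples, and the groups overlapped in set B. Elovl6, the elongase of C16 fatty acids, had 10.86, 11.49 and 12.10 as its lowest, median and highest level in LPD samples, against 9.47, 10.84 and 11.14 in CD samples. Its difference was 0.91 ± 0.28, with an unadjusted p of 0.00233, at 1.56 in set A against 0.49 in set B. Thrsp, a lipogenic nuclear protein, differed by 1.08 ± 0.44 (1.99 in set A against 0.45 in set B), and Acly, which makes cytosolic acetyl-CoA from citrate, by 0.71 ± 0.30 (1.60 in set A against 0.13 in set B). Within set A alone 7 of the 19 passed, where 0.436% of all genes did, namely Pnpla3, Thrsp, Acly, Acacb, Fasn, Gpam and Elovl6.

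Cholesterol synthesis genes differed between the array sets. All 19 measured genes had the higher mean in LPD samples, 18 of them after quantile normalization, but the median difference was 0.19 and 0 genes passed. The median was 0.76 in set A, where 4 passed (Sqle, Lss, Hsd17b7 and Cyp51) against 0.436% of all genes, and -0.12 in set B, where 0 did (0% of all genes). The list level was 10.12 to 10.26 in the 3 LPD samples of set A, against 9.30 to 9.66 in its CD samples. In set B it was 9.52 to 10.19 in LPD samples, against 9.83 to 10.03 in CD samples. The groups were separate in set A and overlapped in set B. Sqle, squalene epoxidase, had 8.46, 9.50 and 9.84 as its lowest, median and highest level in LPD samples, against 7.96, 9.32 and 9.41 in CD samples, a difference of 0.46 ± 0.26. Pmvk and Hsd17b7, enzymes of the mevalonate and the sterol part of the pathway, differed by 0.37 ± 0.16 and 0.43 ± 0.20.

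**Figure D2:**
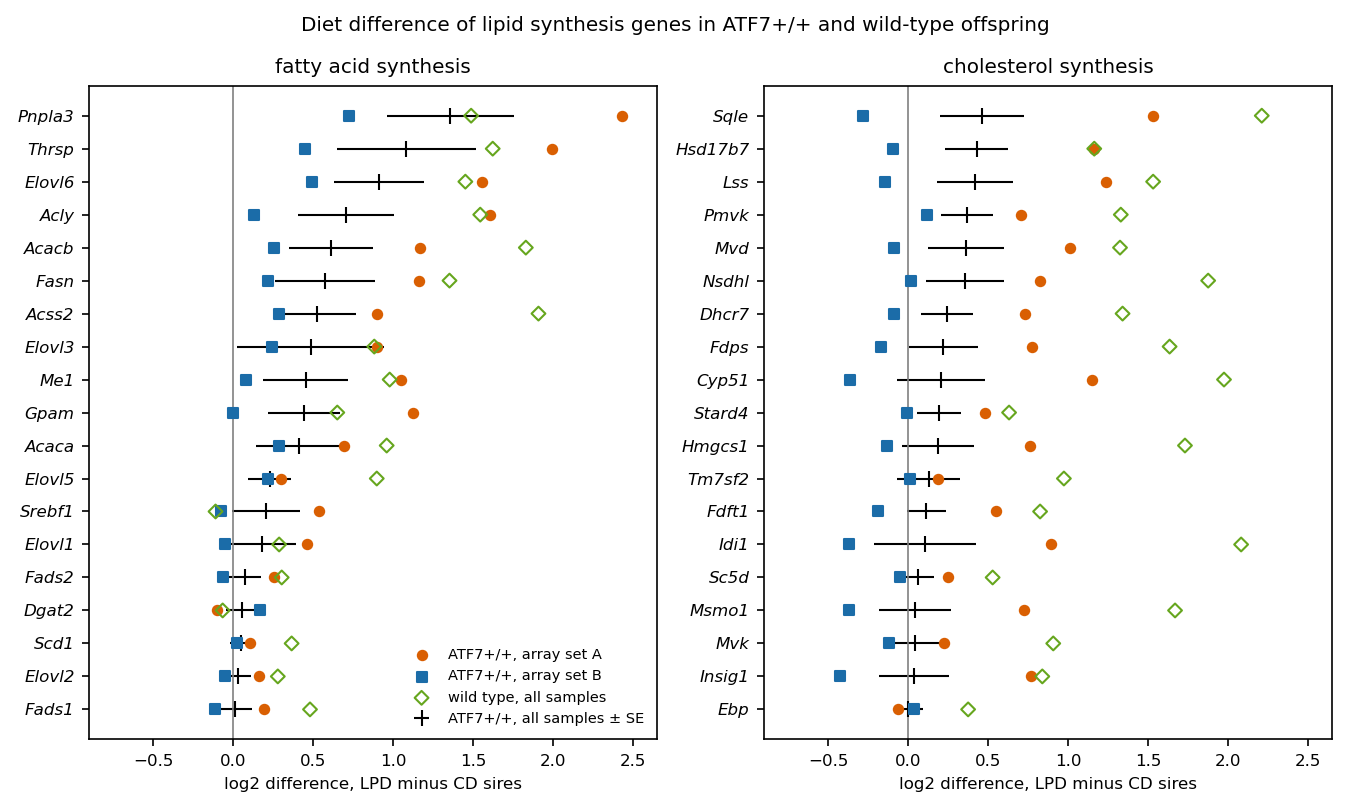
Diet difference (log2, LPD minus CD) of 19 fatty acid and 19 cholesterol synthesis genes, for ATF7+/+ samples in array set A (circles), in set B (squares) and together (bars, ± SE), beside wild-type offspring (open diamonds). Cholesterol genes lie near 0.76 in set A against -0.12 in set B by their medians.

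Of the other metabolic lists none had a gene past the threshold, with or without the array set as a term. Cyp39a1, which passed with that term, is not a member of the bile acid list. In the sugar-responsive list 8 of 10 genes had the higher mean (median 0.14), and Khk, the fructose kinase, differed by 0.36 ± 0.12, Slc2a2, the hepatic glucose transporter, by 0.27 ± 0.10, and Pklr by 0.44 ± 0.21. Without CD replicate 5 the differences of Khk and Pklr were 0.24 and 0.27. Amino acid breakdown and urea cycle genes were lower in 14 of 16 cases, with a median of -0.19 (-0.09 in set A against -0.22 in set B). In that list Tdo2, which opens the tryptophan ring, differed by -0.39 ± 0.14, Otc, a urea cycle enzyme, by -0.20 ± 0.08 and Hpd, of tyrosine breakdown, by -0.20 ± 0.08. In the gluconeogenesis and FOXO list 12 of 16 had the lower mean, with a median of -0.10. Irs2, an insulin receptor substrate that FOXO1 induces in fasting, differed by -0.49 ± 0.14, Crebrf, a regulator of energy balance, by -0.53 ± 0.15, Igfbp1, an insulin-repressed binding protein, by -0.82 ± 0.30 (-1.58 in set A against -0.32 in set B) and Pck1 by -0.43 ± 0.24. Fatty acid oxidation (19 genes, median 0.02), PPARα targets (20, 0.05), bile acid genes (16, 0.00), glucocorticoid-responsive genes (15, -0.05), P450 families 1 to 3 (24, -0.05) and conjugation enzymes (23, 0.00) had medians near that of all genes. The bile acid median was -0.20 in set A against 0.14 in set B. That of the P450 families was -0.18 in set A against 0.16 in set B. Averaged over the bile acid list, CD replicate 5 was at 9.71, against 9.95 to 10.55 in the other CD samples of set B. Over the P450 list it was at 9.66, against 10.14 to 10.29.

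Clock, stress and growth lists had 0 genes past the threshold too. In the core clock loop 9 of 13 genes had the lower mean, with a median of -0.13, and beside Nfil3, Cry1 differed by -0.36 ± 0.14 and Bhlhe40 by 0.46 ± 0.20 (0.97 in set A against 0.12 in set B). Clock output genes had a median of 0.07, at 0.36 in set A against -0.14 in set B. All 12 interferon-stimulated genes had the higher mean, with a median of 0.25 (0.30 in set A against 0.15 in set B), and Oasl1 differed by 0.27 ± 0.12. Acute phase genes had a median of 0.02, while Orm1, an acid glycoprotein, differed by 0.96 ± 0.34 (1.64 in set A against 0.50 in set B). The remaining stress lists had medians of -0.06 (ATF4, 14 genes), -0.07 (ER chaperones, 17), -0.02 (heat shock and cold, 12) and -0.05 (immediate early, 16). Their medians had opposite signs in the array sets. For ATF4 they were 0.06 in set A against -0.16 in set B, and for ER chaperones 0.19 against -0.20. For heat shock and cold they were 0.16 against -0.11, and for immediate early genes 0.22 against -0.30. Averaged over the ATF4 list, CD replicate 5 was at 8.17, against 7.44 to 7.55 in the other CD samples of set B. LPD replicate 6 was at 7.99 there, against 7.35 to 7.54 in the other LPD samples. For immediate early genes CD replicate 5 was at 7.52, against 6.86 to 7.05 in the other CD samples of set B. Cell cycle genes had the higher mean in 20 of 23 cases, with a median of 0.11 (0.28 in set A against -0.07 in set B). Averaged over that list, CD replicate 5 was at 8.33, against 6.49 to 7.17 in the other CD samples. Fetal and imprinted genes had the lower mean in 9 of 11 cases, with a median of -0.10 (-0.42 in set A against -0.08 in set B). Peg3, a paternally expressed imprinted gene, differed by -0.71 ± 0.26, at -1.20 in set A against -0.29 in set B, and by -0.45 without CD replicate 2. The 12 genes of ATF7 and its H3K9 methylation partners had a median of -0.02.

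Marker lists of cell types also had 0 genes past the threshold. The medians were -0.01 for hepatocytes (8 genes), 0.09 for cholangiocytes (3), -0.06 for stellate cells and fibroblasts (12), -0.12 for endothelial cells (10), 0.04 for Kupffer cells (12), 0.07 for granulocytes (6), -0.09 for erythroid cells (5), 0.11 for lymphocytes (6) and 0.08 for tissues outside the liver (4). The 3 Y-linked genes had a median of -0.59. In 9 of 10 endothelial and 10 of 12 stellate and fibroblast genes the LPD mean was the lower, against 6433 of all 13542 genes. After median centring this held for 8 of the 12 stellate and fibroblast genes. The stellate and fibroblast median was -0.17 in set A against 0.08 in set B, and the endothelial median -0.27 against -0.04. Sox9, a marker of bile duct cells, differed by -0.33 ± 0.10 (unadjusted p = 0.0025), while Krt19 and Krt7 differed by 0.13 and 0.09. In whole liver, fewer cells of a type and less RNA per cell cannot be told apart.

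**Figure D3:**
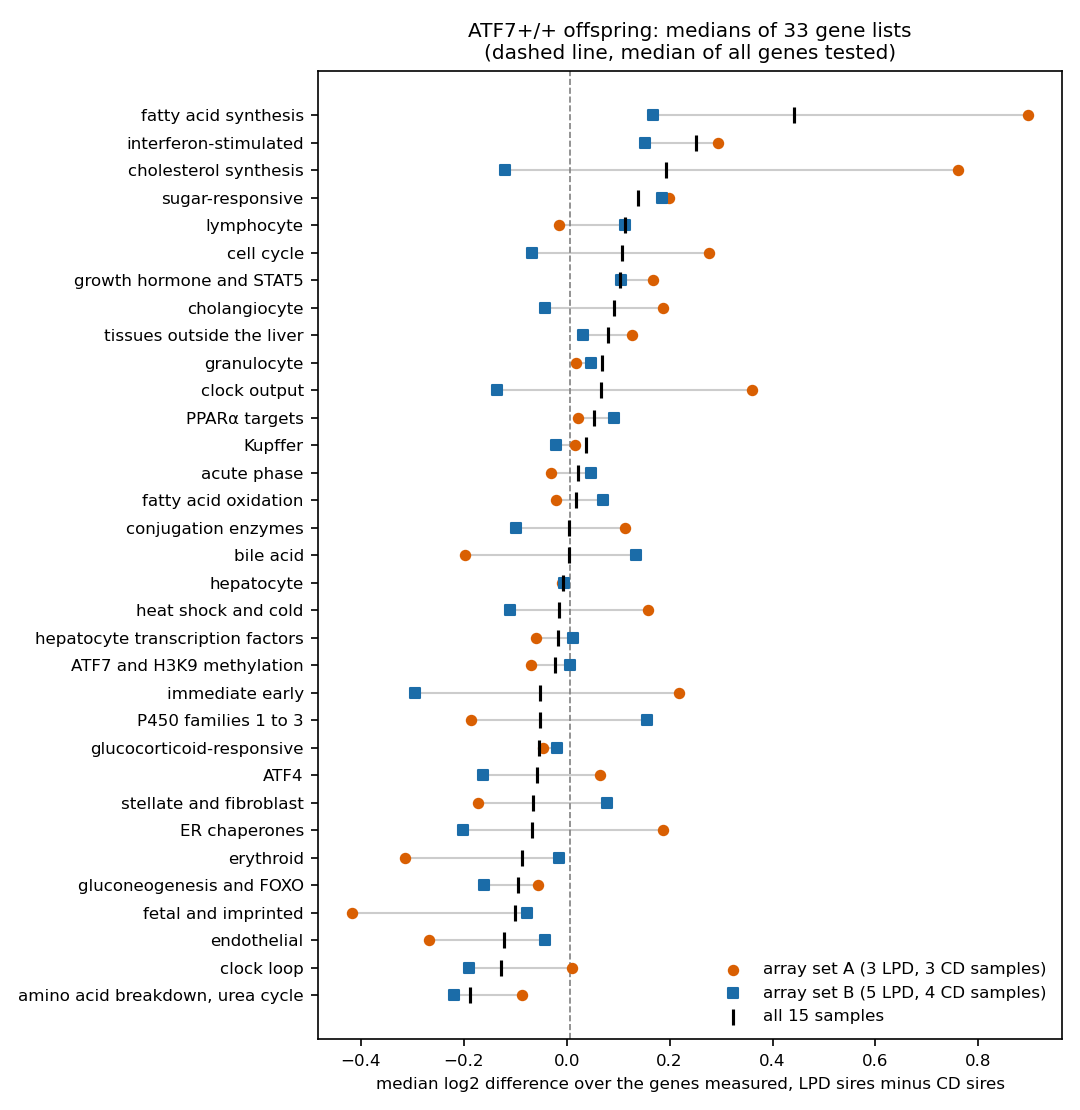
Median diet difference (log2, LPD minus CD) of 33 gene lists in ATF7+/+ offspring, in array set A (circles), array set B (squares) and all 15 samples (bars), with the median of all genes as a dashed line. Fatty acid and cholesterol synthesis show the widest gaps between the sets, at 0.90 and 0.17, and at 0.76 and -0.12. The Y-linked list is not drawn.

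Whether the diet difference of ATF7+/+ offspring differed from that of wild-type offspring was tested as an interaction, and these comparisons share no samples. It differed at 3 genes (0.0222%), all with a smaller difference in ATF7+/+ offspring, and 956 genes had an unadjusted p under 0.05 (7.06%). Msmo1, a sterol demethylation enzyme, had a diet difference of 0.04 ± 0.22 in ATF7+/+ and 1.67 ± 0.22 in wild-type offspring, which differed by -1.63 ± 0.32 (adjusted p = 0.0426). Rdh11, a retinol dehydrogenase that SREBP factors induce, had 0.43 in ATF7+/+ and 1.85 in wild-type offspring, an interaction of -1.43 ± 0.28 (adjusted p = 0.0426). Rps23rg1, a retroposed copy of a ribosomal protein gene whose probes may also read its parent gene, had 0.15 in ATF7+/+ and 1.34 in wild-type offspring, an interaction of -1.18 ± 0.20 (adjusted p = 0.0037). Hmgcs1 and Dhcr7 came next, with interactions of -1.54 ± 0.32 and -1.10 ± 0.23 (adjusted p = 0.0501 and 0.0548). All 19 cholesterol genes had a smaller diet difference in ATF7+/+ offspring, with a median interaction of -0.96 and a range of -1.97 to -0.37.

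The count of this interaction depended on the fit. With the array set as a term it was 51 genes (0.377%), 46 of them lower in ATF7+/+ and 12 of them cholesterol genes. With the replicate number as a block it was 12, which held Msmo1, Rps23rg1 and Hmgcs1 (adjusted p = 0.0379, 0.00681 and 0.00681) but not Rdh11 (adjusted p = 0.0504). It was 0 in the fit on only the groups compared (limma, 819 genes at an unadjusted p under 0.05). It was also 0 in Y-linked high samples, with 605 genes at an unadjusted p under 0.05 without the array set as a term and 1106 with it. Leaving out each ATF7+/+ sample gave 1 to 26 genes. It gave 26 without CD replicate 5, 11 to 16 without CD replicate 2, CD replicate 3, LPD replicate 1 or LPD replicate 3, 7 without LPD replicate 2, 2 without LPD replicate 6 and 1 without any of the others. Rps23rg1 passed in 15 of those 15 fits, and Msmo1 and Rdh11 in 6 each. Over all 32 alternatives Rps23rg1 passed in 28, with an adjusted p of up to 0.337, and Msmo1 and Rdh11 in 18 each. The interaction for Msmo1 was -0.99 in set A against -1.97 in set B, and for Rdh11 -1.34 and -1.43.

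In wild-type offspring 487 genes passed (3.6%), 377 higher (2.78%) and 110 lower (0.812%), with 2153 at an unadjusted p under 0.05 (15.9%). In ATF7+/+ offspring 379 of those 487 (77.8%) had the same sign, against 60.6% of all genes, with a median of 0.10 for the genes that rose in wild type and -0.07 for those that fell. The share was 71.5% within ATF7+/+ set A and 69.6% within set B. Of the fatty acid synthesis genes, 13 rose in wild-type offspring (median 0.90), and of the cholesterol genes all 19 (median 1.33). Onecut1, Cish and Bcl6 differed by 0.41, 0.65 and -0.52 in wild-type offspring without passing. Their interactions of 0.87 ± 0.34, 0.41 ± 0.32 and -1.08 ± 0.48 did not pass either (limma adjusted p = 0.497, 0.965 and 0.616). Efna1, Nfil3, Irf2bp2, Pnrc1, Jmy and Khnyn had positive differences in wild-type and negative ones in ATF7+/+ offspring, and none of these interactions passed (adjusted p of 0.064 to 0.203). Mr1, Aqp8, Gask1a, Fmo4, Gabbr2 and Cfap20dc, each higher in ATF7+/+ LPD offspring, rose in wild-type offspring past the threshold.

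Against ATF7+/- offspring no gene passed the test for a different diet difference (0%, limma), and 380 had an unadjusted p under 0.05 (2.81%). In ATF7+/- offspring themselves no gene passed (0%), with 178 at an unadjusted p under 0.05 (1.31%). The differences in ATF7+/- offspring were 0.31 for Onecut1, 0.04 for Cish and 0.00 for Bcl6. The interactions against them were 0.97 ± 0.34 for Onecut1, 1.01 ± 0.32 for Cish and -1.60 for Bcl6, each with an adjusted p of 1.

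**Figure D4:**
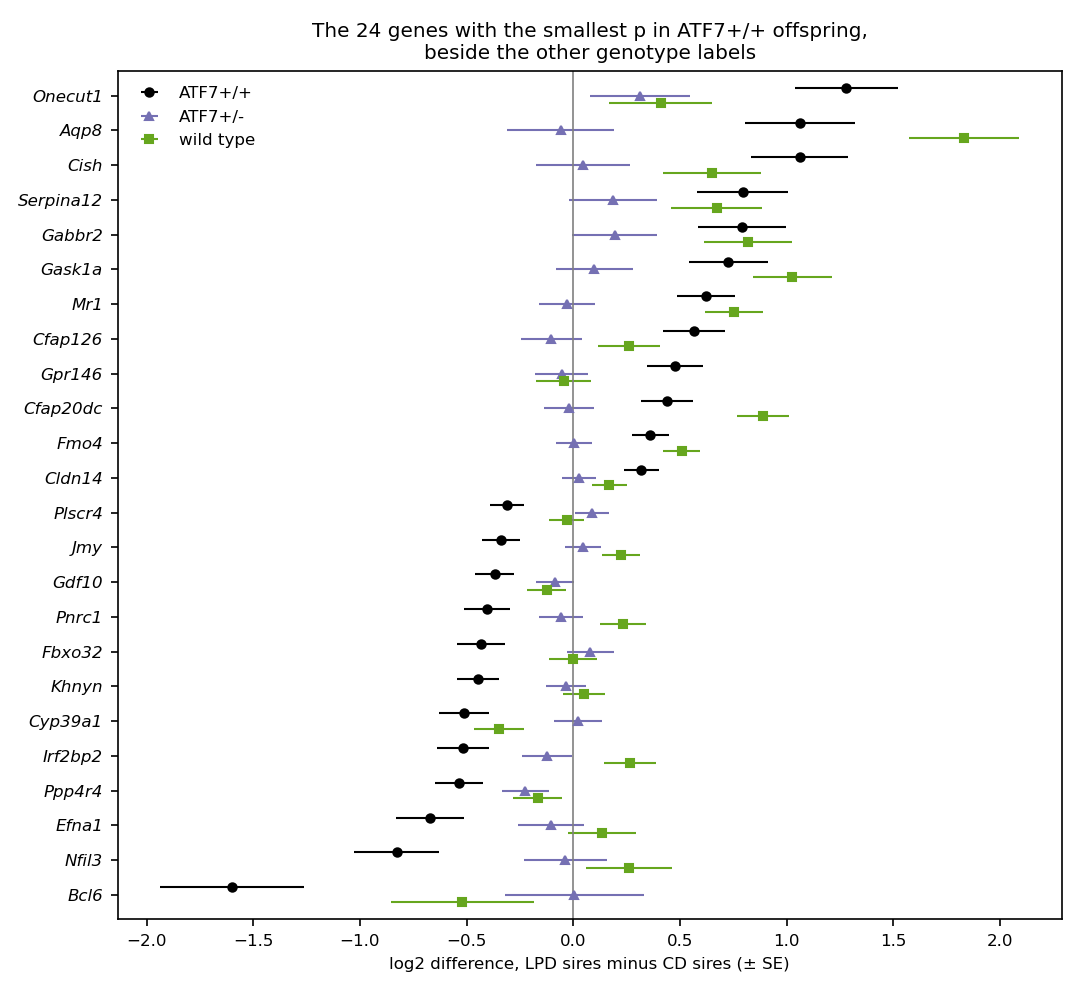
Diet difference (log2, LPD minus CD, ± SE) of the 24 genes with the smallest p in ATF7+/+ offspring (circles), beside ATF7+/- (triangles) and wild-type offspring (squares). The genes were picked for their ATF7+/+ values. Aqp8 and Mr1 are also above 0 in wild type, while Efna1 and Nfil3 lie on the other side of 0 there.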

How the data were processed

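Liver RNA of F1 mice was measured on Affymetrix gene arrays as biotin-labelled cDNA. Each deposited value is a log2 level of a probe set. According to the submitters' processing notes, the authors used RMA and Affymetrix Expression Console for these log2 values. Whether RMA was run on all 48 arrays at once is not given in the sources used here. They were used as deposited. Arrays have no read depth, so the number of arrays limits the precision.

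The platform annotation gave 1 symbol for 21789 of 35556 probe sets, several for 1621 and none for 12146. Probe sets with 1 symbol and a mean at or above the 40th percentile (5.46) were kept, with the brightest per gene, which left 13542 genes. The 2 array sets came from principal component analysis of the 5591 probe sets above that filter that have no listed gene. Array pairs whose difference spread less than 1.5 times as widely on variable as on stable genes were averaged, which took in 2 pairs. These were ATF7+/+ CD replicates 7 and 8 (ratio 1.38) and wild-type CD replicates 4 and 5 (ratio 1.495, close to the cutoff). The next pair was at 2.17. The wild-type CD group thus held 7 samples.

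Group means over 46 samples of all 6 groups were fitted with limma 3.58.1 in R 4.3.3. The same fit was also run on simulated data with independent samples and no array sets, unlike the real arrays. For the ATF7+/+ diet difference it recovered 33 of 67 genes changed 1.25-fold, 58 of 67 changed 1.5-fold and 65 of 66 changed 2-fold. It also called 13 unchanged genes. For the interaction with wild type it recovered 9, 36 and 58 of the same genes. Tests were two-sided, and p-values were adjusted by Benjamini-Hochberg over all 13542 genes, with a threshold of 0.05. Lists were described by counts and medians. Genes could be named if past the threshold, among the 12 smallest p in each direction, or past it with the array set as a term. Those among the 4 smallest p of a list or the 5 smallest of an interaction, and Atf7, could also be named. Not every list or interaction gene that met this rule is named, Sult1d1 and Rb1cc1 being examples. Acacb, Cyp51, Fasn, Ghr, Gpam and Nr1i3 were named outside this rule, after their values were seen. The members, lists and rules were chosen with earlier results of these data known.

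Same-numbered LPD and CD samples deviated together, with correlations of 0.30 to 0.67 over 8 pairs. The main fit did not pair them, and the replicate number was a block in an alternative fit only. Replicates 1 to 3 form array set A, and within array sets the correlations were -0.16 to 0.35. Without regard to array set, 3 of 8 LPD samples were closest to their own number. Among these were LPD replicates 7 and 8, which share the averaged CD sample. The labels do not say that equal numbers are pairs. Promoters were read from RefSeq (GRCm38.p6), with 36 of 41 genes matched, using Python 3.11.15.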

Additional observations from a re-analysis of the deposited data

Results flagged for a closer look

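Chance alone flags about 1 in 20 groups as holding a sample far from the others, and 3 of 82 groups examined did so. Serpina12 was at 6.51 in CD replicate 6, against 4.86 to 5.52 in the other CD samples. Msmo1 was at 9.81 in CD replicate 3, against 10.16 to 10.42 in the others. Atf7 was at 9.59 in CD replicate 2, against 8.84 to 9.16 in the others.

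The diet difference of ATF7+/+ offspring differed from that of wild-type offspring, by the interaction test, at Rps23rg1 (-1.18), Msmo1 (-1.63) and Rdh11 (-1.43), on the log2 scale. The cause of these differences was not tested.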

How the results depend on the processing

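No gene that had passed its test changed sign under any alternative run. The count of 1 gene for ATF7+/+ diet, Onecut1, was 1 and the same gene with the 60th-percentile filter, quantile normalization, mean of all probe sets and trended prior. It was 1 with only the groups compared, where Bcl6 passed and Onecut1 did not (0.0799). It became 0 with no filter, 0 with median centring, 89 with array weights, 2 with the replicate block, 9 with all 48 arrays as samples, 17 with the array set as a term, 59 in set A, 0 in set B, 2 with the Y-linked covariate and 30 with both. Y-linked high arrays alone, chosen after seeing the data, gave 0, and 3 with the array set as a term. Leaving out a sample gave 0 to 5. The count of 3 for the interaction with wild type was 3 with the mean of all probe sets and 4 with the trended prior. It became 1 with no filter, 16 with the 60th-percentile filter, 8 with quantile normalization, 12 with median centring, 33 with array weights, 0 with only the groups compared, 12 with the replicate block, 14 with all 48 arrays, 51 with the array set as a term, 417 in set A, 12 in set B, 18 with the Y-linked covariate, 61 with both, and 0 for Y-linked high arrays with or without the block. Leaving out a sample gave 1 to 26. The interaction with ATF7+/- gave 0 under every alternative run. The causes of these moves were not tested.

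The adjusted p of Onecut1, 0.0493, is close to the threshold of 0.05. Array sets, sex by Y-linked genes and the averaged pair are not named in the labels. With the replicate block Cish (0.0471) and the interaction of Hmgcs1 (0.00681) passed and that of Rdh11 (0.0504) did not, and it changed no other call of a named gene. Genes under the 40th percentile of level were not tested.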
